A study of Rattus norvegicus with 8 samples.

Results

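The 37 genes described here encode proteins that dock, fuse and recover synaptic vesicles at the presynaptic terminal. They were chosen by name: the SNAREs Stx1a, Snap25, Vamp1 and Vamp2, the calcium sensors Syt1, Syt2, Syt4, Syt5, Syt7, Doc2a, Doc2b and Rph3a, the vesicle proteins Syn1, Syn2, Syn3, Syp, Sv2a, Sv2b, Sv2c, Rab3a, Rab3b, Rab3c and Sncb, the SNARE clamps and recycling factors Cplx1, Cplx2, Nsf and Napb, the active zone genes Rims1, Rims2, Unc13a, Bsn, Pclo and Erc2, and the endocytosis genes Dnm1, Amph, Synj1 and Sh3gl2. The array carried 59 probes for them among 45598 non-control probes, and 36 of the 37 genes stood among the 22549 genes that could be tested. Syn3 could not be tested, because its only probe was well above background on 1 of the 4 Sirt6 shRNA arrays and on 1 of the 4 scrambled shRNA arrays.

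A vesicle fuses when Vamp proteins on its membrane zip together with syntaxin and Snap25 on the plasma membrane into a SNARE bundle. Synaptotagmins and related C2-domain proteins sense the calcium that triggers the final step, complexins hold the assembled bundle, and the scaffolds of the active zone place vesicles beside calcium channels. After fusion the ATPase NSF takes the bundle apart, and dynamin, synaptojanin and endophilin return the membrane to a new vesicle.

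RNA came from hippocampal neurons of newborn Wistar rats (postnatal day 0-1), infected on day 3 in culture with lentiviral vectors at a multiplicity of infection of 6 and collected 7 days later, on day 10. One group of 4 samples carried an shRNA against rat Sirt6, which encodes a NAD-dependent deacetylase, and the other group of 4 carried a scrambled control shRNA, so all 8 samples were infected. The design asked what Sirt6 does in the shaping of neurons. A single shRNA was compared with a single scrambled one. Whether the samples are separate cultures or animals is not in the labels, so the spread that the p-values rest on may be technical.

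Sirt6 itself was lower on each Sirt6 shRNA array: its processed signal averaged 476.6 ± 20.2 with the Sirt6 shRNA and 1336 ± 13.1 with the scrambled shRNA (SD, n = 4 each), a log2 change of -1.53 ± 0.040 (SE). Between 60.4% and 65.3% of the probes of an array were well above background, and every tested member was so on all 8 arrays. The arrays shared 1 slide, the Sirt6 shRNA samples in its row 2 and the scrambled ones in its row 1, and row cannot be told apart from group. Over all genes 30.4% were called, meaning an adjusted p under 0.05 in limma's fit across all genes, 15.6% higher and 14.8% lower with the Sirt6 shRNA.

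Among the 36 tested members 11 were called, or 30.6%, against a background of 30.4%, so the share of members that changed was that of genes at large. Higher with the Sirt6 shRNA were 8 members (22.2%, background 15.6%) and lower were 3 (8.33%, background 14.8%). The median log2 fold change of the members was 0.082, against 0.021 over all genes. Positive values were found for 26 members and negative ones for 10, against 12275 and 10274 of all genes. Sizes were modest, with a median absolute log2 fold change of 0.29 for the called members, against 0.30 for all called genes. The groups did not overlap for 12 of the 36 members (33.3%), against 33.4% of all genes. Scaling mattered for the counts. With scaling on E1A spike-in probes, which read RNA added at labelling, 4 members were higher and 0 lower (1 lower at an unadjusted p under 0.05, limma), and with median centring 3 were higher and 3 lower. Over all genes 14.5% were called with spike-in scaling and 25.2% with median centring, against 30.4% in the main scaling. Of all called genes 51.3% were higher in the main scaling, 64.1% with spike-in scaling and 35.2% with median centring.

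**Figure D1:**
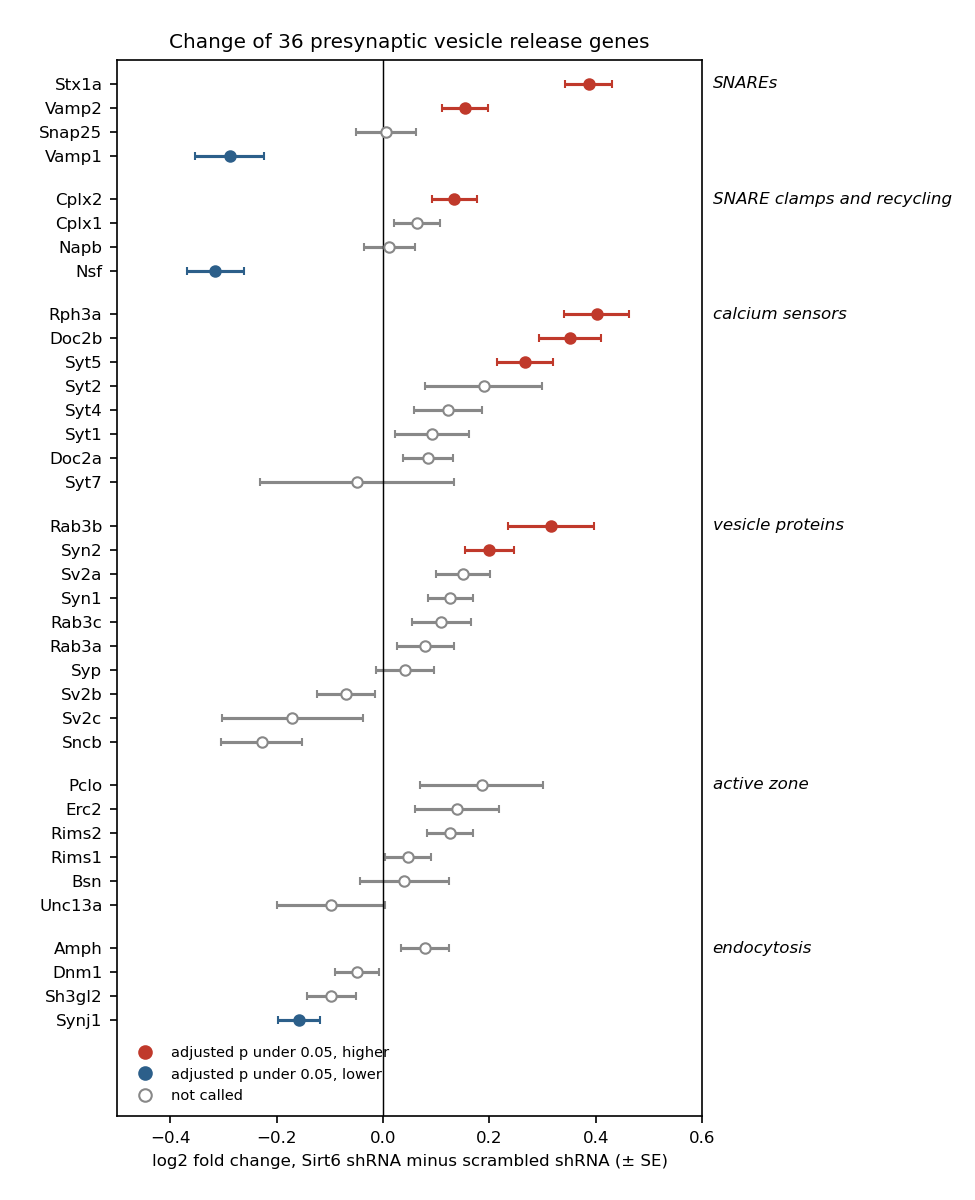
Log2 fold change, Sirt6 shRNA minus scrambled shRNA, of the 36 tested members (points, with the standard error as bars), grouped by role. Rph3a (0.40), Stx1a (0.39) and Doc2b (0.35) lie farthest to the right and Nsf (-0.31) and Vamp1 (-0.29) farthest to the left, while no active zone gene is filled as called.

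Levels below are log2 processed signals minus the 75th percentile of the array, given for replicates 1 to 4 of each group. Levels of different genes come from different probes and are not compared.

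The SNAREs split, with Stx1a and Vamp2 higher, Vamp1 lower and Snap25 not called. Stx1a, the syntaxin of the presynaptic plasma membrane, had levels of 5.04, 4.96, 5.05 and 5.15 on the Sirt6 shRNA arrays, against 4.69, 4.65, 4.66 and 4.66 on the scrambled arrays. The groups were far apart, and the scrambled arrays lay within a narrow band. The log2 fold change was 0.39 ± 0.045 (SE), a rise of 30.7% (adjusted p = 0.00061), and the call was kept in each of 21 alternative settings of the scaling, the filter, the averaging of probes, the model and the arrays used. Stx1a had a single probe, so the settings of the filter, the gene names and the averaging of probes could not move its log2 value. Vamp2, the main vesicular SNARE of forebrain synapses, had levels of 6.33, 6.25, 6.29 and 6.40 with the Sirt6 shRNA, against 6.18, 6.17, 6.12 and 6.18 with the scrambled shRNA. These groups did not overlap either, but the change was smaller, at 0.15 ± 0.043 in log2 or 11.3% (adjusted p = 0.0286). That call was lost in 10 settings, among them the omission of any one array other than Sirt6 shRNA replicate 2 (adjusted p = 0.0514 to 0.0690), spike-in scaling (0.153) and median centring (0.236).

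Vamp1, the sister vesicular SNARE that prevails in brainstem, spinal cord and motor neurons, went the other way. Its levels were 1.17, 1.06, 1.19 and 1.06 with the Sirt6 shRNA, against 1.29, 1.34, 1.55 and 1.44 with the scrambled shRNA. All 4 Sirt6 shRNA arrays lay below all 4 scrambled arrays, with a log2 fold change of -0.29 ± 0.066 (adjusted p = 0.0130). The fall was no longer called with spike-in scaling (log2 -0.21, adjusted p = 0.224) or for the mean of the kept Vamp1 probes (log2 -0.18, adjusted p = 0.168). The change of Vamp2 exceeded that of Vamp1 by 0.44 ± 0.088 in log2 within arrays, without overlap between the groups (two-sided exact permutation p = 0.0286, the smallest that 4 arrays against 4 allow, and 0.0572 after adjustment over 12 pairs of related members). The pairs of related members were chosen with the results known, so their permutation p-values here and below are no independent support for a difference. Snap25, the other SNARE of the presynaptic plasma membrane, had levels between 3.03 and 3.26 with the Sirt6 shRNA and between 3.10 and 3.22 with the scrambled shRNA. Its log2 fold change was 0.0063, with a 95% interval of -0.12 to 0.14 (adjusted p = 0.946), and within arrays Stx1a changed by 0.38 ± 0.034 more than Snap25 (exact permutation p = 0.0286, adjusted 0.0572).

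Of the factors that hold or dismantle the SNARE bundle, Nsf was lower and Cplx2 higher. Nsf, the ATPase that separates used SNAREs, had levels of 2.53, 2.36, 2.58 and 2.54 with the Sirt6 shRNA, against 2.83, 2.80, 2.86 and 2.79 with the scrambled shRNA. Every Sirt6 shRNA array was below every scrambled array, and the log2 fold change was -0.31 ± 0.053, or -19.6% (adjusted p = 0.0034). It was the largest fall among the members, and the call was lost in 1 setting, spike-in scaling (log2 -0.24, adjusted p = 0.152). Its partner Napb, the adaptor beta-SNAP that brings NSF to the bundle, had a log2 fold change of 0.012 on its brightest probe (95% interval -0.098 to 0.12), and the change of Nsf minus that of Napb was -0.33 ± 0.055 within arrays, with no overlap (exact permutation p = 0.0286, adjusted 0.0572). That contrast rests on the brightest Napb probe: the other kept one fell by 0.29 (adjusted p = 0.0054 in the fit over probes). Cplx2, a complexin, had levels of 5.89, 5.85, 5.79 and 5.93 with the Sirt6 shRNA, against 5.74, 5.76, 5.68 and 5.76 with the scrambled shRNA. The groups were separate by a narrow margin, at 0.13 ± 0.042 in log2 (adjusted p = 0.0461), and the call was lost in 12 of 21 settings, including the omission of any one array other than Sirt6 shRNA replicate 3 (adjusted p = 0.0699 to 0.110). Median centring gave 0.089 and spike-in scaling 0.21. The other complexin gene, Cplx1, had a log2 fold change of 0.064 (95% interval -0.034 to 0.16, adjusted p = 0.290). Within arrays Cplx2 changed by 0.070 ± 0.033 more than Cplx1, with groups that overlapped (exact permutation p = 0.0857, adjusted 0.0935).

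Of the 8 calcium sensors 3 were higher (37.5%, against 15.6% of all genes) and 0 lower (against 14.8%). At an unadjusted p under 0.05 in limma 0 were lower too. Rph3a, rabphilin, which binds Rab3 on vesicles, had the largest rise of all members. Its levels were 0.77, 0.68, 0.91 and 0.89 with the Sirt6 shRNA, against 0.31, 0.44, 0.43 and 0.46 with the scrambled shRNA. The lowest Sirt6 shRNA array was well above the highest scrambled one, and the log2 fold change was 0.40 ± 0.062, or 32.1% (adjusted p = 0.0023). Doc2b, a soluble C2-domain protein with high affinity for calcium, had levels of 1.63, 1.58, 1.68 and 1.79 with the Sirt6 shRNA, against 1.33, 1.27, 1.41 and 1.26 with the scrambled shRNA. The groups did not overlap, with a log2 fold change of 0.35 ± 0.057, or 27.6% (adjusted p = 0.0030). Both calls were kept in all 21 settings, which do not include reading another probe alone. The second probe of Rph3a (0.21, adjusted p = 0.123) and that of Doc2b (0.29, adjusted p = 0.221), read alone in the fit over probes, were not called. Syt5, a synaptotagmin, had levels of 4.46, 4.39, 4.46 and 4.59 with the Sirt6 shRNA, against 4.29, 4.19, 4.16 and 4.19 with the scrambled shRNA. It was higher by 0.27 ± 0.052 in log2, or 20.3%, without overlap (adjusted p = 0.0066), and 1 setting, median centring, left it just short of a call (adjusted p = 0.0504).

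The sensors best known for fast release, Syt1 and Syt2, were not called. Without Sirt6 shRNA replicate 2 both were (log2 0.16 and adjusted p = 0.0462 for Syt1, 0.29 and 0.0419 for Syt2). Syt1 had levels between 3.83 and 4.13 with the Sirt6 shRNA and between 3.88 and 3.99 with the scrambled shRNA, with a log2 fold change of 0.092 (95% interval -0.068 to 0.25, adjusted p = 0.353). For Syt2 the fold change was 0.19 in log2 (interval -0.066 to 0.45, adjusted p = 0.234). Within arrays Syt5 changed by 0.17 ± 0.065 more than Syt1, with groups that overlapped (exact permutation p = 0.0571, adjusted 0.0761). Against Syt2 the difference was 0.078 ± 0.10, also with overlap (exact permutation p = 0.429, adjusted 0.429). Syt4, a synaptotagmin of dense-core vesicles, stood at 0.12 (adjusted p = 0.181), and Syt7, a sensor of slower asynchronous release, at -0.049 with a wide interval of -0.47 to 0.37. Doc2a, the paralog of Doc2b, stood at 0.085 (interval -0.023 to 0.19, adjusted p = 0.208). The within-array difference between Doc2b and Doc2a was 0.27 ± 0.075 in log2, with groups that overlapped (exact permutation p = 0.0571, adjusted 0.0761).

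Of the 10 tested vesicle proteins 2 were higher, Rab3b and Syn2 (20%, against 15.6% of all genes), and 0 lower (against 14.8%). At an unadjusted p under 0.05 in limma 1 was lower, Sncb. Rab3b, one of the small GTPases that sit on docked vesicles, had levels of 0.27, 0.12, 0.24 and 0.40 with the Sirt6 shRNA, against -0.07, -0.11, -0.17 and 0.13 with the scrambled shRNA. It was the only called member whose groups overlapped, since scrambled replicate 4 reached the lowest Sirt6 shRNA array. The log2 fold change was 0.32 ± 0.081 (adjusted p = 0.0209), and the call was lost in 5 settings: without Sirt6 shRNA replicate 1 (adjusted p = 0.0502), without scrambled replicate 2 (0.0574) or 3 (0.0517), with median centring (0.0659) and with spike-in scaling (0.0772). Rab3a, the abundant Rab3 of brain synapses, had a log2 fold change of 0.080 (95% interval -0.045 to 0.20, adjusted p = 0.301) and Rab3c one of 0.11 (interval -0.018 to 0.24, adjusted p = 0.172; called without scrambled replicate 1, adjusted p = 0.0492). Within arrays Rab3b changed by 0.24 ± 0.066 more than Rab3a, without overlap (exact permutation p = 0.0286, adjusted 0.0572). Against Rab3c the difference was 0.21 ± 0.088, with groups that overlapped (exact permutation p = 0.0857, adjusted 0.0935).

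The probes of Rab3b and Rab3a lie in related stretches of the 2 genes and are shown to let the difference between the paralogs be read beside the letters that set them apart. They overlap by 45 bases, of which 37 (82.2%) are identical and written in capitals. The Rab3b probe is at chr5:130283528-130283587 (rn4, plus strand) and the Rab3a probe at chr16:19190472-19190531 (rn4, minus strand).
Rab3b: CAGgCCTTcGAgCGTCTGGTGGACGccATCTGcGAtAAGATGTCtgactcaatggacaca
Rab3a: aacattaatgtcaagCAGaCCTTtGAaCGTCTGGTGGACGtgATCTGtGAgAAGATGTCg
How far either probe binds the transcript of the other gene was not tested.

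Syn2, a synapsin that tethers vesicles in the reserve pool, had levels of 3.14, 3.09, 3.12 and 3.26 with the Sirt6 shRNA, against 3.01, 2.93, 2.92 and 2.94 with the scrambled shRNA. All Sirt6 shRNA arrays were above all scrambled ones, with a log2 fold change of 0.20 ± 0.046, or 14.9% (adjusted p = 0.0141). The call was lost for the mean of both probes (log2 0.099, adjusted p = 0.198), with median centring (adjusted p = 0.120) and with spike-in scaling (0.0873). Syn1, the sister synapsin, had groups that did not overlap and a log2 fold change of 0.13 ± 0.042, and missed the call at an adjusted p of 0.0537, though it was called in 6 settings, one of them the omission of Sirt6 shRNA replicate 2 (0.0233). Sv2a, the vesicle glycoprotein bound by the antiepileptic drug levetiracetam, came close as well, at 0.15 ± 0.050 (adjusted p = 0.0560), and was called in 7 settings, one of them that same omission (0.0109). The other SV2 genes had negative values, -0.069 for Sv2b (95% interval -0.19 to 0.056) and -0.17 for Sv2c (-0.48 to 0.14), neither called. Within arrays Sv2a changed by 0.22 ± 0.041 more than Sv2b and by 0.32 ± 0.11 more than Sv2c, without overlap (exact permutation p = 0.0286 and adjusted 0.0572 for each). Syn2 changed by 0.073 ± 0.031 more than Syn1, with groups that overlapped (exact permutation p = 0.0571, adjusted 0.0761). Syp, synaptophysin, a standard marker of synaptic vesicles, had a log2 fold change of 0.042 (interval -0.084 to 0.17, not called).

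Sncb, beta-synuclein, had levels of 1.48, 1.48, 1.51 and 1.80 with the Sirt6 shRNA, against 1.83, 1.82, 1.73 and 1.81 with the scrambled shRNA. Sirt6 shRNA replicate 4 stood among the scrambled arrays and the other Sirt6 shRNA arrays lay well below them. The log2 fold change was -0.23 ± 0.076 (adjusted p = 0.0548). Without Sirt6 shRNA replicate 4 it was -0.30 and called (adjusted p = 0.0030), as it was in 6 other settings.

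None of the 6 active zone genes was called (0 of 6, against 30.4% of all genes), and 1 of them, Rims2, had an unadjusted p under 0.05 in limma. Rims2, a RIM scaffold that links vesicles to calcium channels, had levels of -0.35, -0.35, -0.36 and -0.31 with the Sirt6 shRNA, against -0.49, -0.55, -0.38 and -0.45 with the scrambled shRNA. The groups were separate, with a log2 fold change of 0.13 ± 0.043 (adjusted p = 0.0618; 0.0300 without scrambled replicate 3). The other 5 were Rims1, the priming factor gene Unc13a, the giant scaffolds Bsn and Pclo, and Erc2 of the ELKS family. Their log2 fold changes ran from -0.097 for Unc13a to 0.19 for Pclo, and each had groups that overlapped.

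Of the 4 endocytosis genes 1 was lower, Synj1 (25%, against 14.8% of all genes), and 0 higher (against 15.6%). At an unadjusted p under 0.05 in limma 0 were higher too. Synj1, the lipid phosphatase synaptojanin that uncoats new vesicles, had levels of 3.47, 3.50, 3.38 and 3.40 with the Sirt6 shRNA, against 3.61, 3.59, 3.58 and 3.59 with the scrambled shRNA. The scrambled arrays were almost level and all 4 Sirt6 shRNA arrays lay below them. The fall was small, -0.16 ± 0.039 in log2 or -10.3% (adjusted p = 0.0183), and was not called without Sirt6 shRNA replicate 3 (adjusted p = 0.0508), with no filter on dim probes (0.0543) or with spike-in scaling (log2 -0.083, adjusted p = 0.519). Its binding partner Sh3gl2, endophilin A1, had a log2 fold change of -0.097 (95% interval -0.20 to 0.0096, adjusted p = 0.152). Dnm1, the dynamin that pinches vesicles off, stood at -0.049 (interval -0.14 to 0.047) and Amph, amphiphysin, at 0.078 (interval -0.026 to 0.18), neither called.

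**Figure D2:**
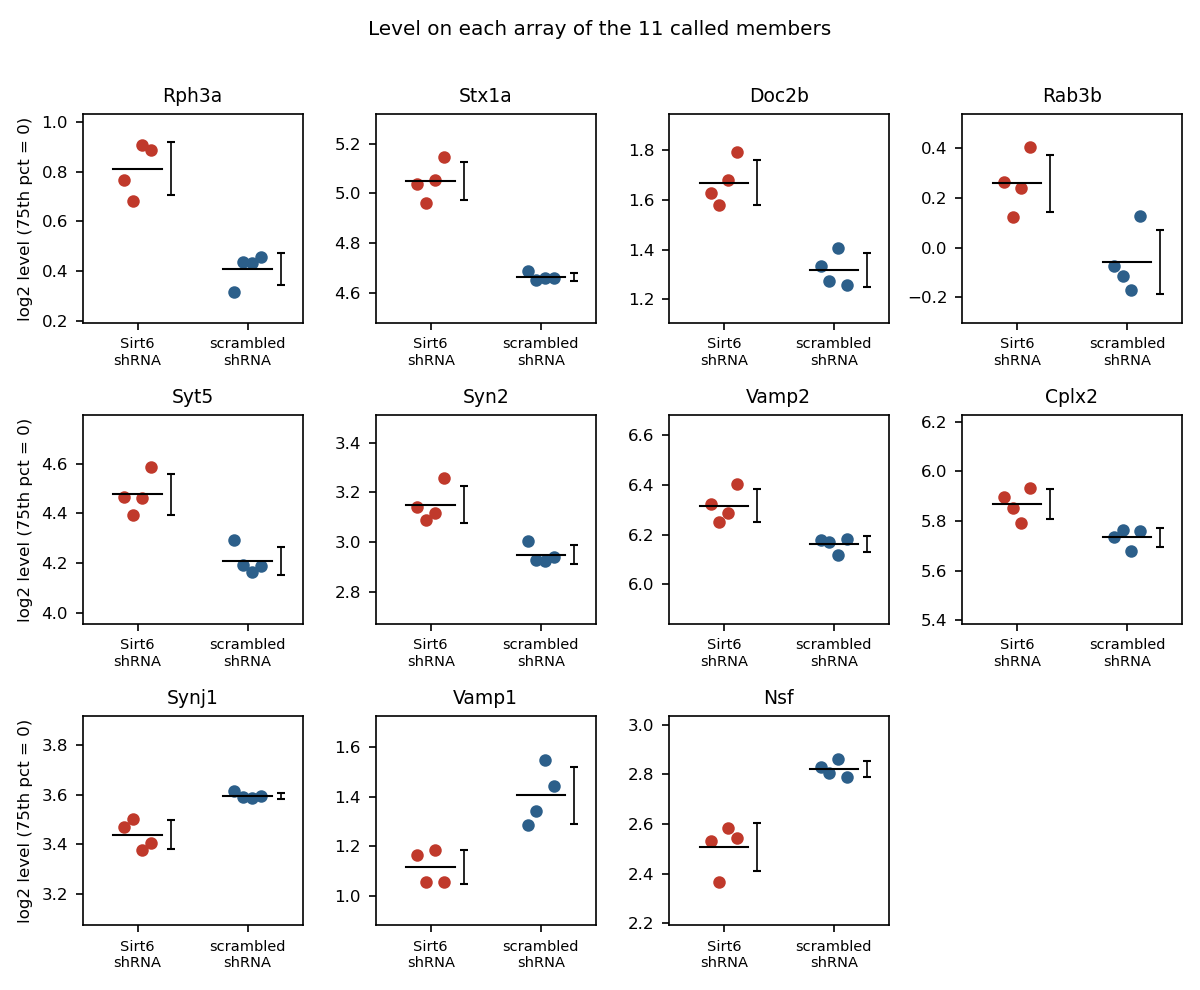
Level of the 11 called members on each array, in log2 units above the array's 75th percentile (points, replicates 1 to 4 from left to right), with the group mean as a horizontal line and the SD as a bar, n = 4 per group. The y axes of all panels span the same range of log2 units, and of these genes only Rab3b has groups that overlap.

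Arrays of one group were not alike for these genes. Sirt6 shRNA replicate 4 was the highest of its group for 20 of the 36 members (55.6%), against 31.9% of all genes, and Sirt6 shRNA replicate 2 the lowest for 24 (66.7%), against 27.6% of all genes. Among the scrambled arrays, replicate 1 was the highest for 19 members (52.8%), against 35.2% of all genes, and replicate 3 the lowest for 19 (52.8%), against 29.7% of all genes. Sirt6 shRNA replicate 2 also stood apart in microglia markers, being the highest of its group for 11 of 12, and the part of that in the members' values was not tested. Without Sirt6 shRNA replicate 2 the count of members called higher was 11, and without Sirt6 shRNA replicate 1 or scrambled replicate 2 it was 5. Of all genes, 29.2% were called without Sirt6 shRNA replicate 2. The share was 24.2% without Sirt6 shRNA replicate 1 and 23.5% without scrambled replicate 2.

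Several members had more than 1 probe, and the brightest stood for the gene in the values above. Single probes were tested in a fit over all 28620 kept probes, of which 28.4% were called. Of the called members, Vamp1, Syn2, Rph3a, Doc2b and Cplx2 had another kept probe. The 3 probes of Vamp1 did not all have the same sign. Like the brightest, the dimmer probe at chr4:161338592-161338651 (rn4) fell, by 0.36 in log2 (adjusted p = 0.0066). The one at chr4:161337249-161337308 gave 0.099 ± 0.18 (adjusted p = 0.722), with a dim mean processed signal of 25.5 with the Sirt6 shRNA and 22.7 with the scrambled shRNA. The change of the brightest probe minus that of this last one was -0.39 ± 0.17 within arrays, with groups that overlapped (exact permutation p = 0.0857, adjusted 0.309 over 18 pairs of probes). For Syn2 the second probe gave -0.0016 ± 0.080 in log2 (adjusted p = 0.992), against 0.20 for the brightest (exact permutation p = 0.0857 for the within-array difference, adjusted 0.309). The second probes of Rph3a (0.21 ± 0.090, adjusted p = 0.123), Doc2b (0.29 ± 0.16, adjusted p = 0.221) and Cplx2 (0.051 ± 0.055, adjusted p = 0.527) had the sign of the brightest and were not called.

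The probes of Napb differed too. Its brightest gave 0.012, and the dimmer one, at chr3:137447124-137448477 (rn4, minus strand), spans 1354 bases of genome with its 60 letters. It had levels of -2.36, -2.22, -2.34 and -2.32 with the Sirt6 shRNA, against -1.97, -1.94, -2.10 and -2.06 with the scrambled shRNA. On that probe the groups did not overlap, with a log2 fold change of -0.29 ± 0.053 (adjusted p = 0.0054), and the mean of both probes was called lower as well (-0.14, adjusted p = 0.0395). The within-array difference between the probes was 0.30 ± 0.064 (exact permutation p = 0.0286, adjusted 0.309). For Syt2 the second probe, at chr13:47699021-47699080, was well above background on 0 of the 4 Sirt6 shRNA arrays and on all 4 scrambled arrays. Its fitted log2 value was -0.44, with an interval of -0.92 to 0.035 that includes no change, and was not called (adjusted p = 0.149). This probe met the filter through the scrambled arrays alone and was left out of the pairs of probes.

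The probes that went against or beyond the value of their gene are given here for Vamp1, Syn2 and Napb. Their within-array differences from the brightest probe did not pass adjustment (exact permutation, adjusted p = 0.309 for each). The sequences are written in lower case with no part marked.
Vamp1, dimmer probe at chr4:161337249-161337308: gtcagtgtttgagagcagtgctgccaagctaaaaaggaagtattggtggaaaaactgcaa
Syn2, dimmer probe at chr4:151392881-151392940: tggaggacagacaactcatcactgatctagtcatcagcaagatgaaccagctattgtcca
Napb, dimmer probe at chr3:137447124-137448477, minus strand: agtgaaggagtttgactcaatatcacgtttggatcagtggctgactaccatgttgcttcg
The brightest probe of Vamp1 lies downstream of the one shown, at chr4:161340363-161340422, and the brightest of Syn2 at chr4:151413161-151413220, all on the plus strand in rn4. Which transcript variants hold each probe was not analysed here.

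**Figure D3:**
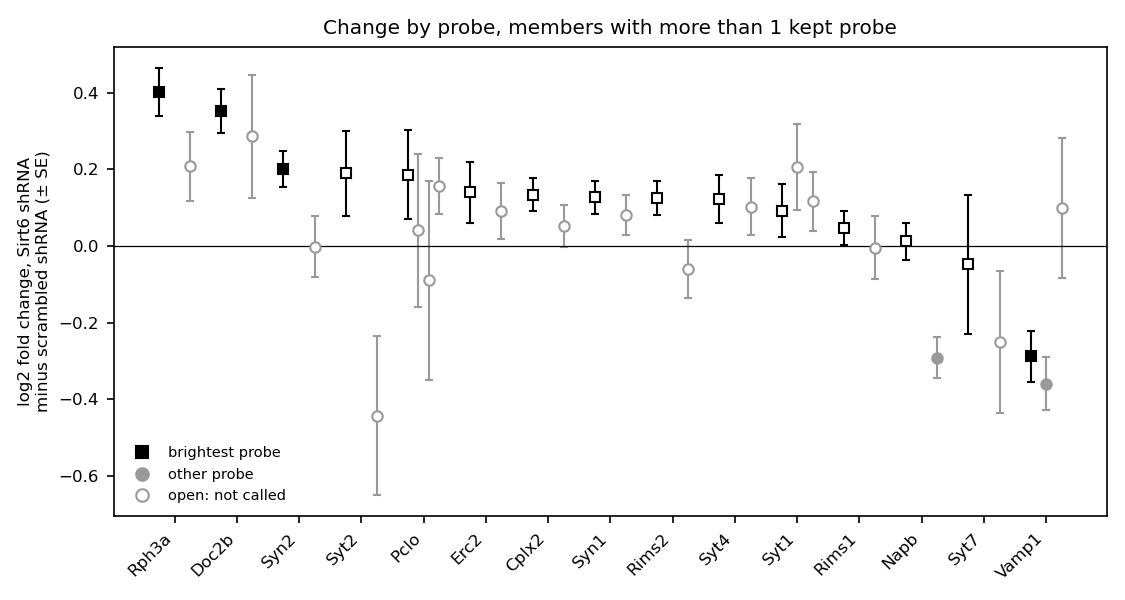
Log2 fold change, Sirt6 shRNA minus scrambled shRNA (± SE), of each kept probe for the 15 members with more than 1 kept probe; squares are the brightest probe, circles the others, and filled symbols are called in the fit over all 28620 kept probes. The second probe of Napb (-0.29) is called and its brightest (0.012) is not, and the brightest probe of Cplx2, called in the fit over genes, has an adjusted p of 0.0520 here. The second probe of Syt2 is drawn at its fitted value, which was not above background with the Sirt6 shRNA.

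Promoters of 30 of the 37 members were found in RefSeq's table for the assembly GRCr8, each a window from 250 bases before to 50 bases after the gene's start. Their median GC content was 67%, against 51.7% over all 33469 promoters. Most motifs below are rich in G and C, and the part of base composition in their shares was not tested. The EGR motif GCGGGGGCG stood in 8 of the 30 (26.7%), against 2.73% of all, and the GC box GGGCGG, which can overlap it, in 22 (73.3%), against 33.1%. The cyclic AMP response element TGACGTCA stood in 3 (10%), against 1.83%, and its first 5 letters TGACG in 13 (43.3%), against 21.2%. The CCAAT box was in 10 (33.3%, all promoters 37.5%), and the E-box CACGTG in 1 (3.33%, all 6.42%). Both strands were searched. No promoter was found for Doc2b and Syt5, both called higher, nor for Snap25, Syt7, Syn3, Rims2 and Doc2a, so these were not searched.

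Members with the same motif did not share a direction. Of the 8 promoters with the EGR motif, those of Syn2 and Vamp2 belong to genes called higher and that of Nsf to a gene called lower, while those of Syn1, Syp, Syt1, Cplx1 and Sh3gl2 belong to genes not called. The response element was in the promoters of Vamp1, called lower, and of Syn1 and Sh3gl2, not called. The 250 bases before the start are shown for the 4 called genes with either motif, on the strand of the gene and with the motif in capitals; in Vamp2 the EGR motif is on the reverse strand.
Vamp2, chr10:54292539-54292788, plus strand: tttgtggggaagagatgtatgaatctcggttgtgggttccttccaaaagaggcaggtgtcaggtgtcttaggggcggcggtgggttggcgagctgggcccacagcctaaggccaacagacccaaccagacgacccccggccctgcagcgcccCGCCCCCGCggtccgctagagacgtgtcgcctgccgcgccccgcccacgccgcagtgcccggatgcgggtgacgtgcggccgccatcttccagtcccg
Syn2, chr4:149858669-149858918, plus strand: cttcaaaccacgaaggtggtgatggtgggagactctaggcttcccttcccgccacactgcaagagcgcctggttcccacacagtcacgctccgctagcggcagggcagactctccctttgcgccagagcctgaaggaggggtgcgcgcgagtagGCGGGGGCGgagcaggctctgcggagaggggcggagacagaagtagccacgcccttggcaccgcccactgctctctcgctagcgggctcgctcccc
Nsf, chr10:89357384-89357633, minus strand: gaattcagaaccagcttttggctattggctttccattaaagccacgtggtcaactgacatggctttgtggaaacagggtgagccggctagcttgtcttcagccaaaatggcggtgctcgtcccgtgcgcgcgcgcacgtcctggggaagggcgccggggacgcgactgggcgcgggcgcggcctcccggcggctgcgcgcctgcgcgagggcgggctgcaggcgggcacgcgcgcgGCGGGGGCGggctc
Vamp1, chr4:159698644-159698893, plus strand: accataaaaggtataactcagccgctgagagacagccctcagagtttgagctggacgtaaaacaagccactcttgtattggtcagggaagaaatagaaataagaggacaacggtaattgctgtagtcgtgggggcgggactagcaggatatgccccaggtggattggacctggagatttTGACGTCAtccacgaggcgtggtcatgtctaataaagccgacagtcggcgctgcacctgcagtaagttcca
The motif lies 98 to 90 bases before the start in Vamp2, 96 to 88 in Syn2, 14 to 6 in Nsf and 71 to 64 in Vamp1. A match says that these letters are in the window, and binding was not measured.

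Around the members, 121 other genes of the vesicle cycle were listed and 117 tested. Of these 40 were called (34.2%, against 30.4% of all genes), 19 higher and 21 lower, with a median log2 fold change of 0.0037. By role, 30% to 42.1% of the tested genes were called. The counts by role below stand beside 15.6% higher and 14.8% lower over all genes. Among SNAREs and their regulators 4 of 20 were higher and 2 lower, including Stxbp6, amisyn, which binds syntaxin (0.29 ± 0.065), the vesicular SNARE Vamp4 of the trans-Golgi and endosomes (0.20 ± 0.033) and Snph, syntaphilin, which anchors axonal mitochondria (-0.22 ± 0.037). The call of Stxbp6 was lost with median centring (adjusted p = 0.0513), with spike-in scaling (0.0670) and for the mean of its probes (0.0505). One of its dimmer probes gave 0.071 (adjusted p = 0.553). Another, well above background on 5 arrays, gave 0.38 (adjusted p = 0.184). With spike-in scaling Vamp4 (adjusted p = 0.0534) and Snph (log2 -0.15, adjusted p = 0.274) were no longer called.

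Of 12 other synaptotagmins and calcium sensors 1 was higher and 4 were lower. Syt17 had a log2 fold change of -0.60 ± 0.055 (adjusted p = 0.00021). Syt10, well above background on 0 Sirt6 shRNA arrays and on all 4 scrambled arrays, was at least 1.63-fold lower (adjusted p = 0.0461), a call lost in 6 of the 8 omissions of 1 array (adjusted p = 0.0524 to 0.104; kept without Sirt6 shRNA replicate 3 or 4) and with the replicate number as a block (0.0924). Syt10 met the filter on dim probes through the scrambled arrays alone. That selection favours a fall, so its adjusted p and its place among the 4 lower are no independent support for one. With no filter on dim probes its adjusted p was 0.0671. The bound compares the scrambled mean with the Sirt6 shRNA mean after raising each Sirt6 shRNA array, where needed, to its dimmest signal well above background. It leaves out the spread of the arrays: the interval of the fitted log2 value was -2.22 to -0.34. With normexp background correction at an offset of 50, which draws dim signals together, the log2 change of Syt10 was -0.16. With 16 added to each signal it was -0.40. Both were smaller falls than the bound. Syt14 rose by 0.25 ± 0.076, a call lost in 6 omissions as well (adjusted p = 0.0756 to 0.0952; kept without Sirt6 shRNA replicate 4 or scrambled replicate 3) and with median centring (0.0739). With normexp correction the rise of Syt14 was 0.15 and called.

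Vesicle membrane proteins and small GTPases had 3 of 19 higher and 5 lower. Rab27a, a GTPase of secretory granules and the exosome pathway, fell by 0.75 ± 0.12 in log2 (adjusted p = 0.0027) and Sncg, gamma-synuclein, by 0.60 ± 0.14 (adjusted p = 0.0148). With normexp correction the falls were smaller, -0.47 for Rab27a and -0.30 for Sncg, and both were called (adjusted p = 0.00022 and 0.0023). Rab3ip, Rabin8, an exchange factor for Rab8, rose by 0.45 ± 0.053, and its other probe gave 0.16 (adjusted p = 0.0661).

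Among other active zone and calcium channel genes 5 of 19 were higher and 1 lower. Apba1, the adaptor Mint1, had a log2 fold change of -0.43 ± 0.055 (adjusted p = 0.0010; -0.22 with normexp correction, adjusted p = 0.00072; -0.38 and adjusted p = 0.0814 on its other probe), Lin7b, of the same adaptor complex, one of 0.22 ± 0.043, and Unc13c one of 0.29 ± 0.092. Unc13c stood at 0.087 with normexp correction (adjusted p = 0.164) and at 0.19 with 16 added to each signal (0.0609), and its call was lost in 12 of 21 settings, among them 6 omissions of 1 array (adjusted p = 0.0709 to 0.106; kept without Sirt6 shRNA replicate 3 or scrambled replicate 1), and that of Lin7b with median centring (0.0609) and spike-in scaling (0.0706). Of the vesicular transporters and pump subunits 4 of 18 were higher and 2 lower. The vesicular glutamate transporter gene Slc17a8 (VGLUT3) rose by 0.95 ± 0.070 on its brightest probe (adjusted p = 8.68e-05) and its other probe gave 0.35 (adjusted p = 0.106). The size of that rise was 0.30 with normexp correction and 0.61 with 16 added to each signal, both called (adjusted p = 6.88e-05 and 2.75e-05). Slc17a6 (VGLUT2) rose by 0.40 ± 0.049 and Slc30a3, the zinc transporter of glutamatergic vesicles, by 0.37 ± 0.067.

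Endocytosis genes outside the list were higher for 2 of 29 and lower for 7. Ston2, stonin 2, which sorts synaptotagmin during retrieval, fell by 0.44 ± 0.071 (its other probe gave -0.10, adjusted p = 0.348, and the mean of both -0.27, adjusted p = 0.0177), and the clathrin adaptor Eps15 fell by 0.26 ± 0.040, a call lost with spike-in scaling (adjusted p = 0.223). Dnm3, a dynamin, rose by 0.31 ± 0.052, with 0.17 on its other probe (adjusted p = 0.114).

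**Figure D4:**
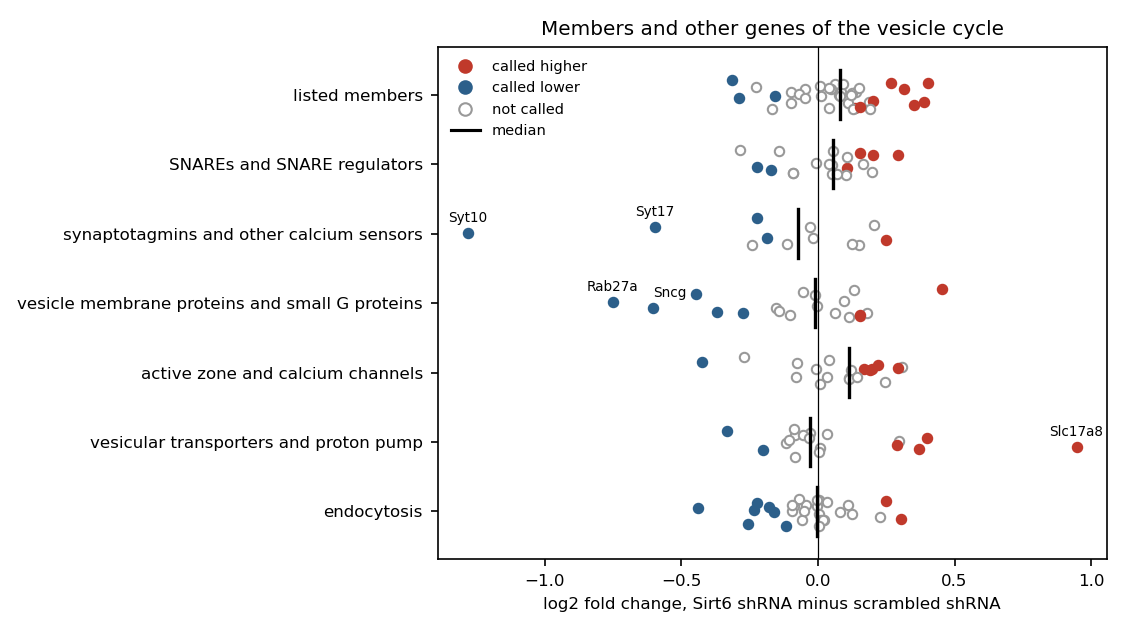
Log2 fold change, Sirt6 shRNA minus scrambled shRNA, of the 36 tested members (top row) and of 117 other vesicle cycle genes by role, 1 point per gene with the median of each row as a black bar. The members range from -0.31 to 0.40, while Syt10 (fitted value, not above background with the Sirt6 shRNA), Rab27a, Syt17, Sncg and Slc17a8 lie farther out; the medians range from -0.071 to 0.11.

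The samples are whole cultures, in which fewer cells of a type and less RNA per cell cannot be told apart. The marker counts below stand beside 15.6% called higher and 14.8% called lower over all genes. All 16 general neuron markers were well above background on all 8 arrays; 7 were called higher, 1 lower and 8 were not called, and their summed level, on a linear scale where the array's 75th percentile is 1, was 414.4 to 448.2 with the Sirt6 shRNA and 387.7 to 396.0 with the scrambled shRNA. Of the 16, 13 had positive values and 3 negative ones, and the marker called lower was Stmn2 (-0.22). Astrocyte markers were higher for 1 and lower for 8 of 12, with summed levels of 272.2 to 302.4 with the Sirt6 shRNA and 388.7 to 424.2 with the scrambled shRNA, and GABAergic neuron markers were higher for 4 and lower for 9 of 17 (205.4 to 227.3 with the Sirt6 shRNA, 231.7 to 255.7 with the scrambled shRNA). Excitatory neuron markers were higher for 3 of 10 and lower for 0 (0 lower at an unadjusted p under 0.05 in limma too), with summed levels of 63.0 to 68.4 with the Sirt6 shRNA and 59.3 to 64.0 with the scrambled shRNA. Microglia markers were lower for 3 of 12, with summed levels of 25.3 to 50.9 with the Sirt6 shRNA and 35.6 to 50.4 with the scrambled shRNA. Sirt6 shRNA replicate 2 had the 50.9, against 25.3 to 30.2 on the other Sirt6 shRNA arrays. Oligodendrocyte markers were higher for 1 and lower for 3 of 12 (46.3 to 47.8 with the Sirt6 shRNA, 51.2 to 56.5 with the scrambled shRNA). Endothelial and mural markers were higher for 4 of 8 (11.7 to 14.2 with the Sirt6 shRNA, 3.93 to 4.67 with the scrambled shRNA). Tagln carried that sum, at 9.71 to 12.1 with the Sirt6 shRNA and 2.13 to 2.83 with the scrambled shRNA, while the other 7 summed to 1.95 to 2.23 with the Sirt6 shRNA and 1.72 to 1.84 with the scrambled shRNA. Pecam1, a defining endothelial gene, had a log2 value of -0.46 and was not called (adjusted p = 0.0768). Cldn5, Flt1, Rgs5 and Cnn1 were not tested, since no probe of theirs was well above background on more than 3 of the 8 arrays, and the same held for Tbr1, Adarb2 and Lum of the other lists. Fibroblast markers were higher for 5 and lower for 2 of 9 (42.9 to 45.7 with the Sirt6 shRNA, 43.0 to 45.8 with the scrambled shRNA). Fn1, the brightest of them, was at 20.1 to 21.6 with the Sirt6 shRNA and 16.9 to 18.2 with the scrambled shRNA. The rest summed to 22.2 to 24.3 and 25.2 to 28.9, in that order. Without their brightest marker, GABAergic sums (without Cck) were 144.1 to 159.5 and 176.8 to 199.6. Excitatory sums without Prox1 were 32.3 to 34.8 and 29.5 to 30.4. The part of these shifts in the values of the members was not tested.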

How the data were processed

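Total RNA of 8 neuron samples, 4 with the Sirt6 shRNA and 4 with the scrambled shRNA, was measured on one-colour Agilent arrays. The spot intensity values are, per the submitters' processing notes, the authors' output of the software Agilent Feature Extraction (version 11.5.1.1): background-subtracted processed signals. The authors' deposited log2 table equalled these signals on a log2 scale minus 1 constant per array (SD of the difference at most 0.0029) and served as an alternative.

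Outlier and control spots were left out, replicate spots were averaged as log2 values, and the 75th percentile of the array was subtracted. A probe was kept if well above background on at least 4 of 8 arrays (28620 probes). Probes were renamed through RefSeq's GRCr8 gene table by accession or symbol, and the brightest kept probe stood for a gene. Of the 59 probes of the members 53 were named by accession and 6 by symbol, and 55 were kept. Probe coordinates are those of the files, in rn4, and promoters are RefSeq's, in GRCr8.

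The main test was limma (version 3.58.1, under R 4.3.3), two-sided and with no covariate, with Benjamini-Hochberg adjustment over 22549 genes and a call at an adjusted p under 0.05. Single probes were adjusted over all kept probes. The fit was tested on simulated data. Differences between probes or related members were compared within arrays by an exact permutation test, chosen after seeing the data. The pairs of related members were picked after seeing the data too. The members and lists were chosen with earlier results of these data known. Named were all members, with all probes of the called ones, and per role of the wider vesicle cycle up to 3 called genes of largest absolute change. Precision is limited by how many arrays there are. Other settings tried were normexp background correction (offset 50), quantile normalization, median centring, scaling on 7 E1A spike-in probes, 16 added to each signal, the authors' log2 values, other filters on dim probes, the mean of the probes or all kept probes, the files' own gene names, a trended and robust eBayes, weighted arrays, a block for the replicate number and leaving out single arrays.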

Additional observations from a re-analysis of the deposited data

Results flagged for a closer look

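In 7 of the 74 groups of 4 arrays screened, a group being 1 member in 1 condition, a single array stood apart from the others by more than Dixon's 95% critical value allows. Chance flags about 5% of groups. Sirt6 shRNA replicate 4 stood apart for Sncb, at a level of 1.80 where the other Sirt6 shRNA arrays had 1.48 to 1.51, and for Amph, at 1.32 where they had 1.19 to 1.21. Sirt6 shRNA replicate 2 stood apart for Sv2b, at 0.59 where the others had 0.77 to 0.78, and for Dnm1, at -0.99 where the others had -0.92. Scrambled replicate 1 stood apart for Syt7, at -4.16 where the other scrambled arrays had -4.87 to -4.76, for Rab3c, at -1.41 where they had -1.60 to -1.57, and for Bsn, at 3.68 where they had 3.51 to 3.53. None of these 7 genes was called, and Sncb and Rab3c were called when that array was left out (adjusted p = 0.0030 and 0.0492).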

How the results depend on the processing

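Stx1a, Rph3a and Doc2b kept their direction and their call in all 21 alternative settings. For Stx1a, with a single probe, the settings of the filter, the gene names and the averaging could not move the log2 value. The settings do not include reading a second probe alone, and so read, Rph3a (0.21) and Doc2b (0.29) were not called. Scaling on the 7 E1A spike-in probes gave 3266 called genes (14.5%), 4 members higher and 0 lower (1 at an unadjusted p under 0.05, limma), and 10 higher and 8 lower among the other vesicle cycle genes. It moved the median of all genes to 0.095, against 0.021 in the main scaling, and the share of called genes that were higher to 64.1%, against 51.3%. Median centring gave 3 members and 8 other vesicle cycle genes higher, with a median of -0.024 and a share of 35.2%. With median centring 25.2% of all genes were called. With no filter on dim probes, which tests more genes, 10 other vesicle cycle genes were higher and 13 lower, with 14.6% of all genes called. Over all kept probes, counted as probes, 7 of the 55 kept probes of members were higher and 5 lower. That fit called 28.4% of all kept probes in either direction. Among probes of the other genes, whose number is not given here, 23 were higher and 37 lower, so no share can be read. Read by 1 of its 2 dimmer probes Vamp1 turned to 0.099 (the other gave -0.36), and Syn2 by its dimmer probe to -0.0016. The cause of these shifts was not tested. Leaving out 1 array gave 5307 to 6593 called genes (23.5% to 29.2%), 5 to 11 members higher and 2 to 4 lower, and 10 to 21 other vesicle cycle genes higher and 14 to 21 lower. With the replicate number as a block, 6422 genes were called, 8 members higher and 3 lower, and 18 other vesicle cycle genes higher and 16 lower, among them no longer Syt10. Arrays of the same number correlated at 0.065, 0.162, 0.134 and 0.034 in their deviations from the group means, not all above 0.1, and not every array correlated best with its own number, so the numbers were not taken to pair the samples. Levels near background limit the reading of Syn3 and of the dimmer Syt2 probe.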
